A study of Mus musculus with 12 samples.

Results

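Red blood cell genes were followed through 12 RNA libraries that the study sorted as neutrophils. The set consisted of 9 genes of 28987 in the deposited table: the adult globin genes Hba-a1, Hba-a2, Hbb-b1 and Hbb-b2, the haem synthesis gene Alas2, the transcription factor genes Klf1 and Gata1, and the carbonic anhydrase genes Car1 and Car2. They were chosen by symbol as markers of erythroid cells, and each of them had a row in the table. Neutrophils are not known to make haemoglobin, so these genes were read in each library as a sign of RNA from other cells.

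The mice were of the FVB strain and had received 2 mL thioglycollate into the peritoneal cavity, an irritant that draws neutrophils out of the marrow. Bone marrow (BM) and peritoneal (PT) cells were taken from wild-type (WT) mice and from MRP8-Bcl2 mice, which gave the groups BM WT and BM Bcl2 from marrow and PT WT and PT Bcl2 from the peritoneum, with 3 libraries each. In MRP8-Bcl2 mice, human Bcl-2 is driven by the regulatory regions of human MRP8, a gene of the myeloid lineage, so that neutrophils resist cell death. All groups, controls included, had received thioglycollate, and no age was given. The labels place collection 6 h after injection, whereas the paper's methods give times on either side of it, and the labels name macrophages as the source cells where the design text and the paper name neutrophils. The cells were sorted by flow cytometry into Trizol, and the paper identifies neutrophils as CD11b+F4/80-GR1++ cells, a gate with no red cell marker. The deposited columns number the libraries 1 to 12 and carry no mouse number, so the p-values measure the spread between libraries and no library could be paired with another of the same mouse.

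Red cells are made in the marrow of adult mice. Precursors first express Gata1 and Klf1, which encode DNA-binding activators of red cell genes, and then Alas2, the first enzyme of haem synthesis in this lineage. Late precursors fill with alpha and beta globin mRNA and with carbonic anhydrases, which convert carbon dioxide to bicarbonate. Young red cells that have lost their nucleus still hold globin mRNA for a time.

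S100a8 and S100a9, which encode the calcium-binding proteins most abundant in neutrophils, summed to between 75014 and 324980 TPM in BM and between 10499 and 57073 TPM in PT, where TPM counts transcripts after correction for their length, scaled to a fixed total per library. The row of mouse Bcl2 in the table, which checks the transgene only if its reads were counted there, was at 166 to 333 TPM in BM Bcl2 and at 0.219 to 2.37 TPM in the 6 WT libraries. PT Bcl2 libraries 7 and 8 held 82.8 and 58.6 TPM of it but library 9 held 0.695 TPM, which therefore goes against its label. Results that involve PT Bcl2 are given with library 9, and values without it follow for members and other erythroid genes whose call changed. The value of 1 read, estimated from the spacing of low values, was 0.344 to 1.61 TPM on a transcript of 1 kb, so that values of a few TPM rest on a handful of reads.

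The 2 alpha globin genes are close copies, as are the 2 beta globin genes, and their sequences set how far their values can be told apart. In the mouse reference (GENCODE M21, GRCm38), Hba-a1 (chr11:32283511-32284465, plus strand) and Hba-a2 (chr11:32296489-32297298, plus strand) had coding sequences of 426 nt that differed at 1 position, the substitution C381T counted from the A of the start codon with Hba-a1 first. Hbb-b1 (chr7:103826534-103828096, minus strand, named Hbb-bs in GENCODE) and Hbb-b2 (chr7:103812524-103813996, minus strand, Hbb-bt) had coding sequences of 441 nt that also differed at 1 position, C417T with Hbb-b1 first. Of all stretches of 31 nt in the coding sequence, 92.2% of those of Hba-a1 were also in Hba-a2 and 93.9% of those of Hbb-b1 were also in Hbb-b2. The coding stretches around the differing base, which is in capitals, are shown because only reads over it, or over the untranslated ends, can be given to 1 copy.
Hba-a1, chr11:32284323-32284363, plus strand: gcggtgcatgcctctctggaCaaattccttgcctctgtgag
Hba-a2, chr11:32297140-32297180, plus strand: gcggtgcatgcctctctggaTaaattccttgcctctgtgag
Hbb-b1, chr7:103826672-103826712, minus strand: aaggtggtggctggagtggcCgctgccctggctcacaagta
Hbb-b2, chr7:103812663-103812703, minus strand: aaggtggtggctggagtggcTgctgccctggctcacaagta
The reference is that of another strain than FVB, and the sequence of FVB was not used here. The split of reads within each pair is therefore uncertain, and sums over the pair are given beside the single genes.

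Sequences upstream of the members were searched for letters that red cell and general transcription factors bind. The set of RefSeq windows used here (GRCm38.p6) held a transcription start for 7 of the 9 members and had none under the symbols Car1 and Car2. Within the 250 nt before the start, the letters GATAA, the core bound by Gata1, were found on either strand in 6 of 7 members. They were found in 22.6% of all 32851 listed windows, and were not found in that of Gata1 itself. The letters CACCC, bound by Klf1, were found in 7 of 7 against 52.0% of all windows, CCAAT in 5 of 7 against 33.8%, and TATAA in 5 of 7 against 22.8%. The motifs may overlap each other, and such a match describes letters only. The parts of 3 windows that lie before any annotated exon are shown for an alpha globin, a beta globin and the haem enzyme, with these 4 motifs on either strand in capitals.
Hba-a2, chr11:32296242-32296488, plus strand: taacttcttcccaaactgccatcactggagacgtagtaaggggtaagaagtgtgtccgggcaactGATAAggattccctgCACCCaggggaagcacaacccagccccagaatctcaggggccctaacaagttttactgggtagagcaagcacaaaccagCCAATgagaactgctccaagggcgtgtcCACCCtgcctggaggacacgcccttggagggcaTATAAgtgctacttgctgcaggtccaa
Hbb-b1, chr7:103828097-103828178, minus strand: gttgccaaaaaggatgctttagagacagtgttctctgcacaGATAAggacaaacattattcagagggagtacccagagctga
Alas2, chrX:150547167-150547374, plus strand: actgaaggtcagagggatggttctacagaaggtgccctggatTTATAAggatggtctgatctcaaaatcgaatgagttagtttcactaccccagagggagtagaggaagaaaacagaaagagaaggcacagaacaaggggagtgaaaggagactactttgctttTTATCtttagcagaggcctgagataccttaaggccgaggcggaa

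Globin RNA was found in every BM library and was near the limit of detection in PT. The summed level of the 4 globin genes was 62.8, 102 and 172 TPM in BM WT (libraries 4, 5 and 6) and 1322, 128 and 107 TPM in BM Bcl2 (libraries 1, 2 and 3). In PT it was 1.96, 9.26 and 2.03 TPM in WT (libraries 10, 11 and 12) and 8.18, 2.90 and 0 TPM in Bcl2 (libraries 7, 8 and 9). The groups did not overlap between tissues, and the lowest BM library exceeded the highest PT library 6.79-fold. Of all genes tested, 7.97% in WT and 32.6% in MRP8-Bcl2 mice had every BM library above every PT library. The share with this order over both genotypes together was not counted. The means were 112 ± 55.3 TPM in BM WT and 4.42 ± 4.19 TPM in PT WT (SD, n = 3 each), a ratio of 25.4, or 56.3 without library 11. In MRP8-Bcl2 mice they were 519 ± 695 TPM in BM and 3.69 ± 4.15 TPM in PT (SD, n = 3 each), a ratio of 141, which became 31.8 without library 1 and 358 without library 7. In these bulk libraries, fewer cells that hold globin RNA and less globin RNA per cell cannot be told apart.

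**Figure D1:**
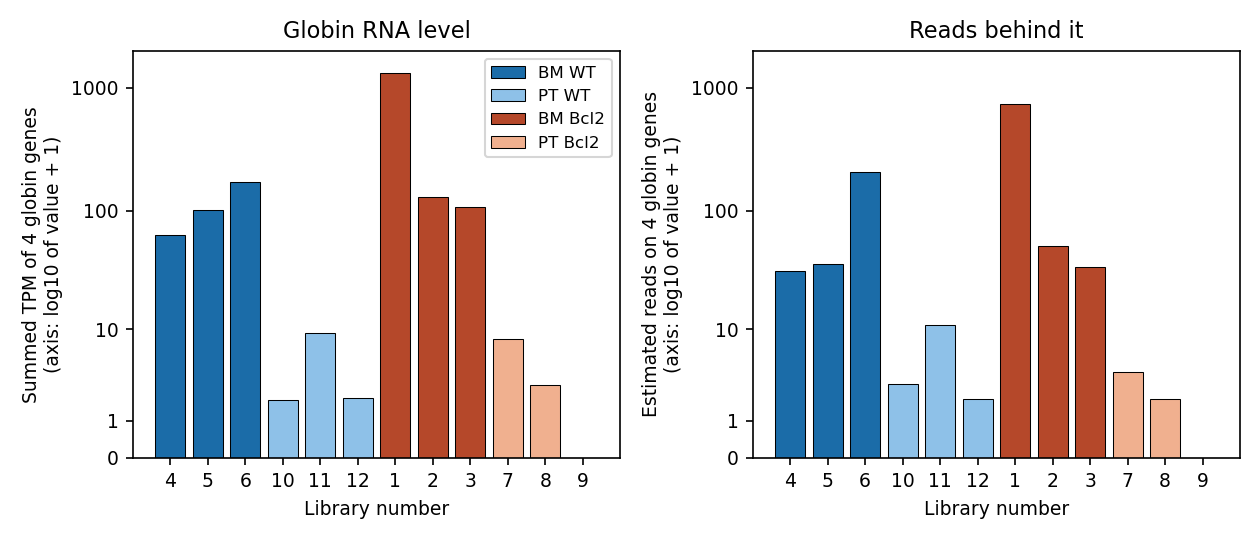
Bars give the summed TPM of the 4 globin genes (left) and the estimated number of reads on them (right) in each library, both on an axis of log10 of the value plus 1, with libraries ordered by group and coloured by it. The 6 BM libraries lie between 62.8 and 1322 TPM and the 6 PT libraries between 0 and 9.26 TPM, and library 1 stands above all others.

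The estimated number of reads behind these levels was 32, 36 and 206 in BM WT and 734, 51 and 34 in BM Bcl2, against 3, 11 and 2 in PT WT and 4, 2 and 0 in PT Bcl2. A PT library thus held at most 11 globin reads. These counts come from libraries of unlike depth. On a transcript of 1 kb, 1 read was worth 0.344 to 0.453 TPM in PT WT and 0.669 to 1.086 TPM in PT Bcl2. It was worth 0.911 to 1.61 TPM in BM Bcl2. In BM WT it was worth more than in any PT WT library, except in library 6 (0.4398 TPM). A member listed at 0 in PT was not detectable at the depth of its library, a limit lower in PT WT than in most BM libraries. As a share of all TPM in the table, globin took 0.00691 to 0.141% in BM and 0 to 0.00101% in PT. The neutrophil genes S100a8 and S100a9 together exceeded globin 155-fold in library 1 and 700.3 to 2965-fold in the other BM libraries, so globin was a small part of each library. In PT WT library 11 the ratio was 1134, inside the BM range. It was 6980 to 23604 in PT libraries 7, 8, 10 and 12.

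Among the alpha globin genes, Hba-a1 was listed at 0, 42.1 and 78.4 TPM in BM WT and at 330.1, 24.2 and 13.3 TPM in BM Bcl2. In PT it was at 0, 4.60 and 0.659 TPM in WT and at 5.49, 0 and 0 TPM in Bcl2. The BM and PT ranges of WT overlapped for Hba-a1 because library 4 was listed at 0, although the same library had 39.9 TPM of its copy Hba-a2. Hba-a2 measured 39.9, 12.02 and 38.1 TPM in BM WT and 307.5, 63.6 and 8.17 TPM in BM Bcl2. It was at 0, 0 and 0.659 TPM in PT WT and at 2.69, 1.74 and 0 TPM in PT Bcl2, below every BM library of the same genotype.

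Among the beta globin genes, Hbb-b1 measured 22.9, 47.8 and 43.8 TPM in BM WT and 580.9, 40.2 and 75.1 TPM in BM Bcl2. It was at 1.96, 4.66 and 0 TPM in PT WT and was listed at 0 in all 3 PT Bcl2 libraries. Hbb-b1 was the only globin gene detected in all 6 BM libraries apart from Hba-a2. Hbb-b2 measured 0, 0 and 11.7 TPM in BM WT and 103.5, 0 and 10.5 TPM in BM Bcl2, and reached 0.714 TPM in 1 PT WT library and 1.16 TPM in 1 PT Bcl2 library. It made up 15.1, 12.3 and 21.02% of beta globin TPM in the BM libraries that had any (libraries 1, 3 and 6). Beta globin TPM divided by alpha globin TPM ran from 0.458 to 3.98 over the BM libraries, with library 1 at 1.073.

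The embryonic and minor globin genes gave no signal. Hbb-y, Hbb-bh1, Hbb-bh2, Hba-x, Hbq1a and Hbq1b were listed at 0 in all 12 libraries, so the globin RNA detected was assigned to the adult genes alone.

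**Figure D2:**
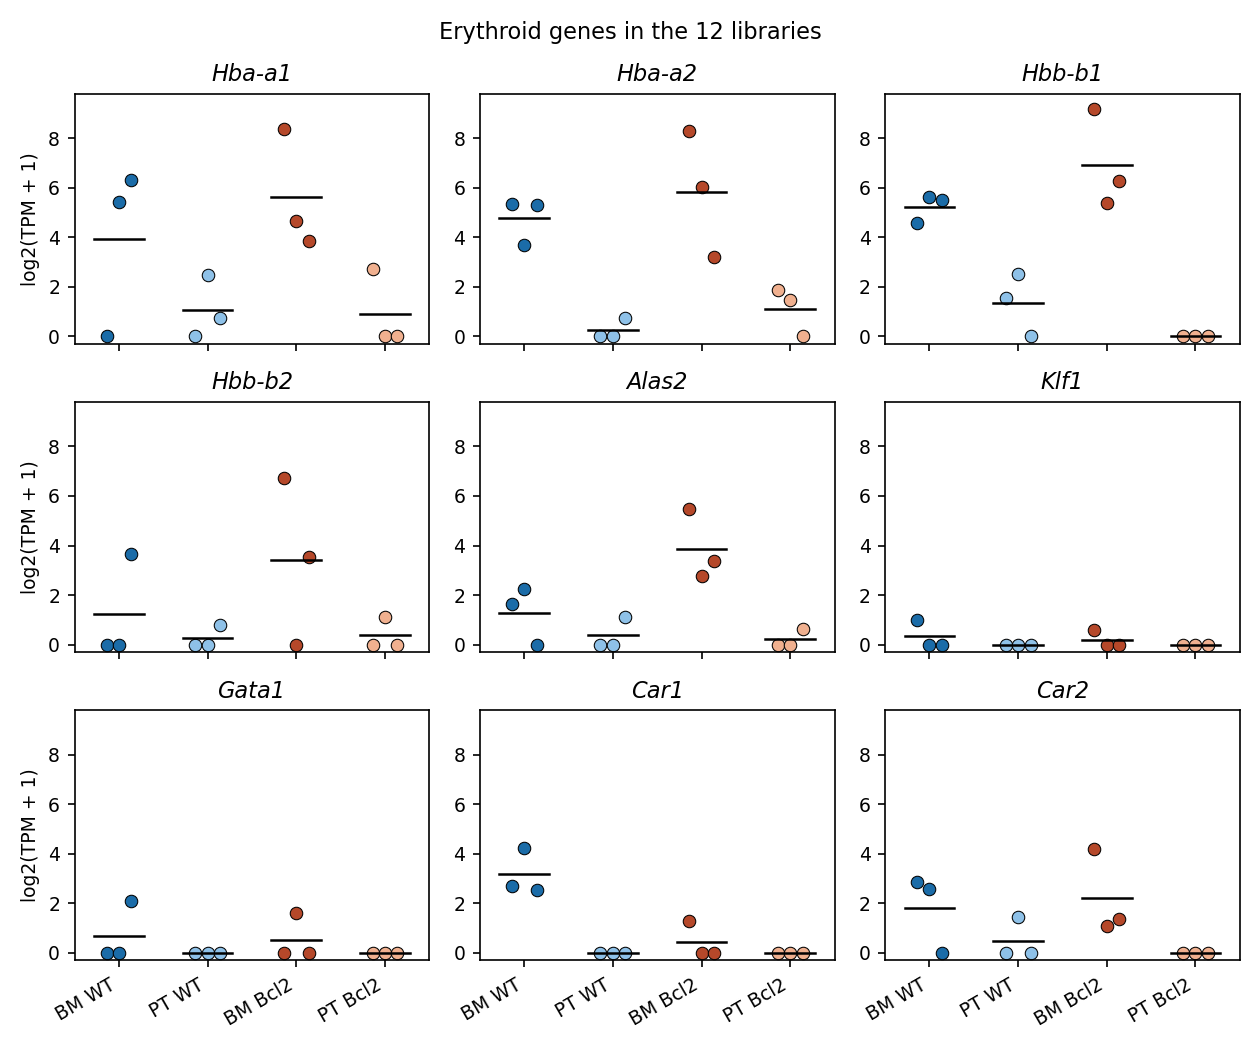
Each point is 1 library and each line a group mean of log2(TPM + 1), with a panel per gene and the 4 groups along the axis (n = 3 each). The group means of the globin genes are higher in BM than in PT, although Hba-a1 is at 0 in BM library 4 and Hbb-b2 in BM libraries 2, 4 and 5. Klf1 and Gata1 are each above 0 in 2 libraries, and Car1 is highest in BM WT.

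Alas2 (chrX:150547375-150570638, plus strand), whose product starts haem synthesis in red cell precursors, measured 2.11, 3.70 and 0 TPM in BM WT and 43.7, 5.77 and 9.48 TPM in BM Bcl2. In PT it was above 0 in 1 library of each genotype, at 1.18 TPM in WT and 0.549 TPM in Bcl2. Every BM Bcl2 library thus lay above every BM WT library, and above every PT library. The share of all genes with this order between the BM groups was not counted. Relative to globin, Alas2 was at 3.31 to 8.85% in the 5 BM libraries where it was detected.

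The transcription factor genes were almost undetected. Klf1 (chr8:84901928-84905291, plus strand) was at 0.992 TPM in BM WT library 4 and at 0.520 TPM in BM Bcl2 library 1, and was listed at 0 in the other 10 libraries. Gata1 (chrX:7959260-7978071, minus strand) was at 3.31 TPM in BM WT library 6 and at 2.08 TPM in BM Bcl2 library 2, and was listed at 0 elsewhere. Both were listed at 0 in all 6 PT libraries. In library 1, where globin was highest, Klf1 rested on about 0.980 of a read and Gata1 was listed at 0. Which cells gave the Gata1 reads was not tested. These 2 genes did not reach 1 TPM in 3 libraries, the minimum for a test, and were not tested.

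The carbonic anhydrase genes had patterns of their own over the libraries. Car1 (chr3:14766216-14808368, minus strand) was at 5.51, 18.1 and 4.85 TPM in BM WT but at 1.44, 0 and 0 TPM in BM Bcl2, and was listed at 0 in all PT libraries. The lowest BM WT library thus lay above the highest BM Bcl2 library for Car1, the opposite order to Alas2. The share of all genes with such an order between the BM groups was not counted, and neither gene was called between genotypes. Car2 (chr3:14886273-14900770, plus strand) was at 6.19, 5.04 and 0 TPM in BM WT, at 17.3, 1.12 and 1.56 TPM in BM Bcl2, at 1.75 TPM in 1 PT WT library and at 0 in the other 5 PT libraries. Car1 rested on about 8.08, 15.2 and 13.9 reads in BM WT and on about 1.99 reads in library 1, so few reads separate the genotypes.

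PT was compared with BM in 1 limma fit over all 13456 genes that had at least 1 TPM in at least 3 libraries, on log2(TPM + 1). Calls required at least a 2-fold change together with a p below 0.05 after Benjamini-Hochberg adjustment over all genes. Of the 9 members, 7 entered the test. A member can pass the filter through its BM libraries alone, so the number of members called is a description and not a test of the set.

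In WT mice, 3 members were lower in PT, against 1.22% of all genes tested, and none was higher, against 1.59%. Hba-a2 was lower by 4.54 on the log2 scale (log2 fold change -4.54, SE 1.05, limma adjusted p = 0.0327). Hbb-b1 had a log2 fold change of -3.87 (SE 0.92, limma adjusted p = 0.0367) and Car1 one of -3.17 (SE 0.59, limma adjusted p = 0.0113), where Car1 was listed at 0 in every PT WT library and its value depends on the pseudocount. These 3 were also the members with every BM library above every PT library, an order held by 7.97% of all genes tested. Hba-a1 did not pass, with -2.84 (95% confidence interval -6.06 to 0.38, adjusted p = 0.365), and neither did Hbb-b2 (-0.96, adjusted p = 0.771), Alas2 (-0.92, adjusted p = 0.625) or Car2 (-1.33, adjusted p = 0.495).

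The WT calls were close to the threshold. Without library 10 none of the 3 was called, at adjusted p = 0.105 for Hba-a2, 0.0993 for Hbb-b1 and 0.0570 for Car1, and without library 4, 6 or 12 only Car1 was. Hbb-b1 also lost its call without library 5 (adjusted p = 0.102) and Hba-a2 without library 11 (adjusted p = 0.0919). The directions of all 3 stayed the same, and a fit of the 6 WT libraries alone called 1 of them.

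In MRP8-Bcl2 mice, 4 members were lower in PT and none was higher, where 19.1% of all genes tested were lower and 2.31% higher. Hbb-b1 had a log2 fold change of -6.93 (SE 0.92, limma adjusted p = 0.000663), a value that depends on the pseudocount because PT Bcl2 was listed at 0. Hba-a1 (-4.72, SE 1.51, limma adjusted p = 0.0385), Hba-a2 (-4.71, SE 1.05, limma adjusted p = 0.00789) and Alas2 (-3.67, SE 0.81, limma adjusted p = 0.00753) were called as well. Hbb-b2 (-3.04, adjusted p = 0.109), Car2 (-2.21, adjusted p = 0.0896) and Car1 (-0.43, adjusted p = 0.628, and 1.16 once libraries were centred on their median) did not pass. Hbb-b2 was called without library 2 (-4.75, adjusted p = 0.0216). Every BM Bcl2 library lay above every PT Bcl2 library for 5 members, the 4 called and Car2, as it did for 32.6% of all genes tested.

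The PT Bcl2 libraries read low over most genes, which bears on these counts. The median log2 fold change over all genes tested was -1.02 in MRP8-Bcl2 mice and 0.22 in WT mice. The balance of all calls in MRP8-Bcl2 mice turned with the scaling, from 311 higher and 2567 lower as deposited to 1636 higher and 467 lower with libraries centred on their median and to 678 higher and 779 lower under quantile normalization. Over both genotypes it went from 690 higher and 1891 lower to 1752 and 862 when centred and to 1233 and 1249 under quantile normalization. In WT it went from 214 higher and 164 lower to 112 and 197 when centred and to 233 and 264 under quantile normalization. Once each library was centred, the median over all genes became 0.57 in MRP8-Bcl2 mice and 0.0045 in WT mice, and Hbb-b1 alone of the members stayed called in MRP8-Bcl2 mice (-5.34, adjusted p = 0.00673), while in WT Hbb-b1 lost its call (-4.09, adjusted p = 0.0545). Under quantile normalization Hbb-b1 was again the only member called there. The log2 fold changes of the 4 members kept their sign under both scalings. Hba-a1 lost its call in MRP8-Bcl2 mice without library 1 (adjusted p = 0.130), 2, 8 or 9 (adjusted p = 0.0931), whereas Hba-a2, Hbb-b1 and Alas2 stayed called whichever library was left out.

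**Figure D3:**
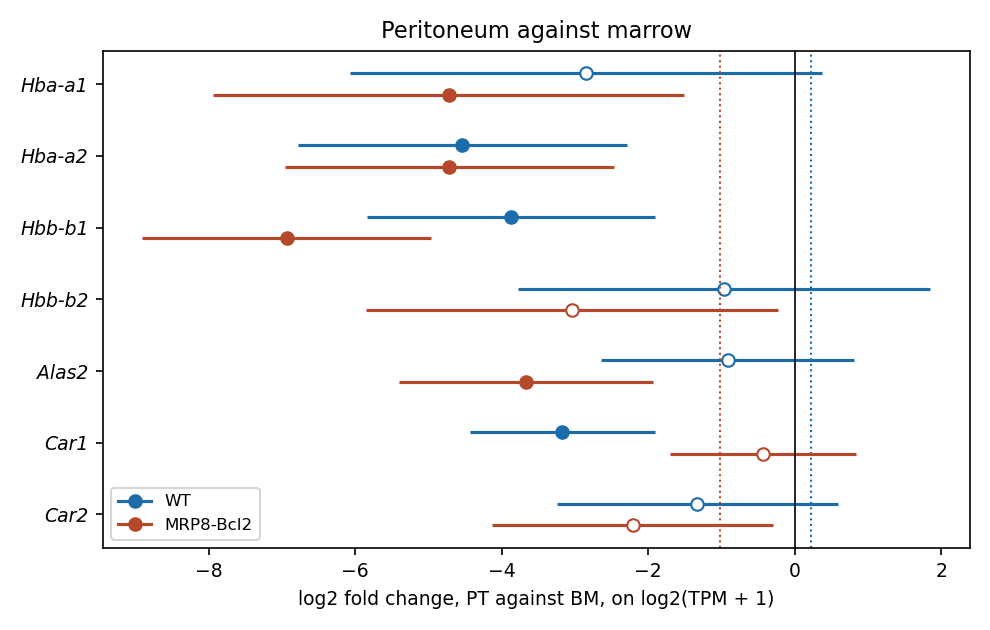
Points give the log2 fold change of PT against BM on log2(TPM + 1) for the 7 members tested, with 95% confidence intervals, in WT (blue) and MRP8-Bcl2 (red) mice, filled where called. Dotted lines mark the median over all genes tested, at 0.22 in WT and -1.02 in MRP8-Bcl2 mice, and every point lies below 0.

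Averaged over both genotypes, 5 members were lower in PT and none was higher, where 14.1% of all genes tested were lower and 5.13% higher. Hbb-b1 had a mean log2 fold change of -5.40 (SE 0.65, limma adjusted p = 0.000105) and Hba-a2 of -4.63 (SE 0.75, limma adjusted p = 0.000852), and both stayed called under every alternative setting and whichever library was left out. Hba-a1 (-3.78, adjusted p = 0.0232), Alas2 (-2.29, adjusted p = 0.0130) and Car1 (-1.80, adjusted p = 0.00880) were called, and Hbb-b2 (-2.002, adjusted p = 0.142) and Car2 (-1.77, adjusted p = 0.0641) were not. Hba-a1 lost this call without library 5, 6 or 10 (adjusted p = 0.0553, 0.0518 and 0.0564), while Car2 was called without library 6 (adjusted p = 0.0192) and Hbb-b2 without library 2 (adjusted p = 0.0249). Centring the libraries left Hba-a2 and Hbb-b1 called.

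Summing the copies removed the uncertainty of how reads were split. The 2 alpha genes summed were lower in PT WT, at a log2 fold change of -4.77 (SE 1.11, limma adjusted p = 0.0332) and -5.21 in MRP8-Bcl2 mice (SE 1.11, limma adjusted p = 0.00650). The 2 beta genes summed had -3.72 in WT (SE 0.92, limma adjusted p = 0.0429) and -6.70 in MRP8-Bcl2 mice (SE 0.92, limma adjusted p = 0.000793). Alpha and beta globin were thus each lower in PT in both genotypes by this test, on the values as deposited. The WT sums passed narrowly, and the sums were not tested under the other scalings or without single libraries. Like single members, they can pass the filter through their BM libraries alone.

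Whether the tissue difference itself depended on genotype was tested as an interaction, and limma called no member, where 0.0149% of all genes tested were called. At an unadjusted p under 0.05 there were 3 members, Car1 (interaction 2.74, adjusted p = 0.233), Alas2 (-2.75, adjusted p = 0.265) and Hbb-b1 (-3.06, adjusted p = 0.267), and 2279 genes in all. The alpha globin difference had an interaction of -0.18 for Hba-a2 (95% confidence interval -3.35 to 3.00), an interval that spans large changes in either direction.

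The genotypes were then compared within each tissue. In BM no member was called by limma, where 0.0223% of all genes tested were, and 2 members had an unadjusted p under 0.05. Car1 had a log2 fold change of -2.74 in Bcl2 against WT (SE 0.59, unadjusted p = 0.000337, adjusted p = 0.229), with adjusted p between 0.0971 and 0.679 when single libraries were left out. Alas2 had 2.59 (SE 0.81, unadjusted p = 0.00614, adjusted p = 0.567). Hbb-b1 (1.71, 95% confidence interval -0.26 to 3.68) and Hba-a2 (1.05, -1.20 to 3.29) did not pass. The globin sum of BM Bcl2 was 4.63 times that of BM WT with library 1 and 1.05 times without it, at 118 ± 14.8 TPM (SD, n = 2).

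In PT no member was called between genotypes, where 0.0297% of all genes tested were, and none had an unadjusted p under 0.05. The smallest adjusted p was 0.541, for Hbb-b1 (-1.36, 95% confidence interval -3.32 to 0.61). With 0 to 11 globin reads a library, a difference between the PT groups was not detectable at this depth.

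BM Bcl2 library 1 held the most globin RNA of the 12 libraries. Its globin sum was 7.69 times that of the next library. It was the highest library for 6 of the 9 members (all but Klf1, Gata1 and Car1). The globin genes are among these 6, and library 1 was singled out by their sum. Their part of the count therefore restates that choice. Of the members outside the globins, it was the highest for Alas2 and Car2. Over all 18605 genes detected in any library, it was the highest for 6.28%. Of the other erythroid genes on the lists used here, library 1 was the highest for 18 of 69 detected (26.1%). Library 3 was the highest for 14 of 69 (20.3%), close to its share of 20.5% over all genes.

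Slc4a1, which encodes the anion exchanger band 3 of the red cell membrane, was at 9.14 TPM in library 1, at 5.33 TPM in PT WT library 11, and at 0 to 1.19 TPM in the others. Its highest value was thus in the library with the most globin. Chosen after its values were seen, Kel, which encodes a red cell blood group antigen, was at 3.80 TPM in library 1 and at 0 in every other library, and 161 of all genes were detected in library 1 alone. Chosen in the same way, Trim10, which acts in erythroid differentiation, at 4.02 TPM, and Blvrb, a flavin and biliverdin reductase of red cells, at 49.0 TPM were also highest there. Trim10 was otherwise detected in library 3 alone, at 1.21 TPM. Blvrb did not follow globin, at 20.3 and 17.3 TPM in PT WT libraries 10 and 11 against 0 to 15.1 TPM in the other BM libraries.

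Several other red cell genes were undetected or were highest in another library. Epor, the erythropoietin receptor gene, was listed at 0 in all 12 libraries. Tfrc, which encodes the receptor for iron uptake, was at 10.5 TPM in library 1 against 35.6 TPM in library 3, and Fech, the last enzyme of haem synthesis, at 3.77 TPM against 16.3 TPM. Tal1, an early blood transcription factor gene, ran from 0 to 9.72 TPM over the BM libraries and from 0.0843 to 7.19 TPM over the PT libraries. Epb4.2 (Epb42), which encodes a membrane protein that binds band 3, was listed at 0 in library 1 and was highest in PT Bcl2 library 7 at 14.6 TPM.

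**Figure D4:**
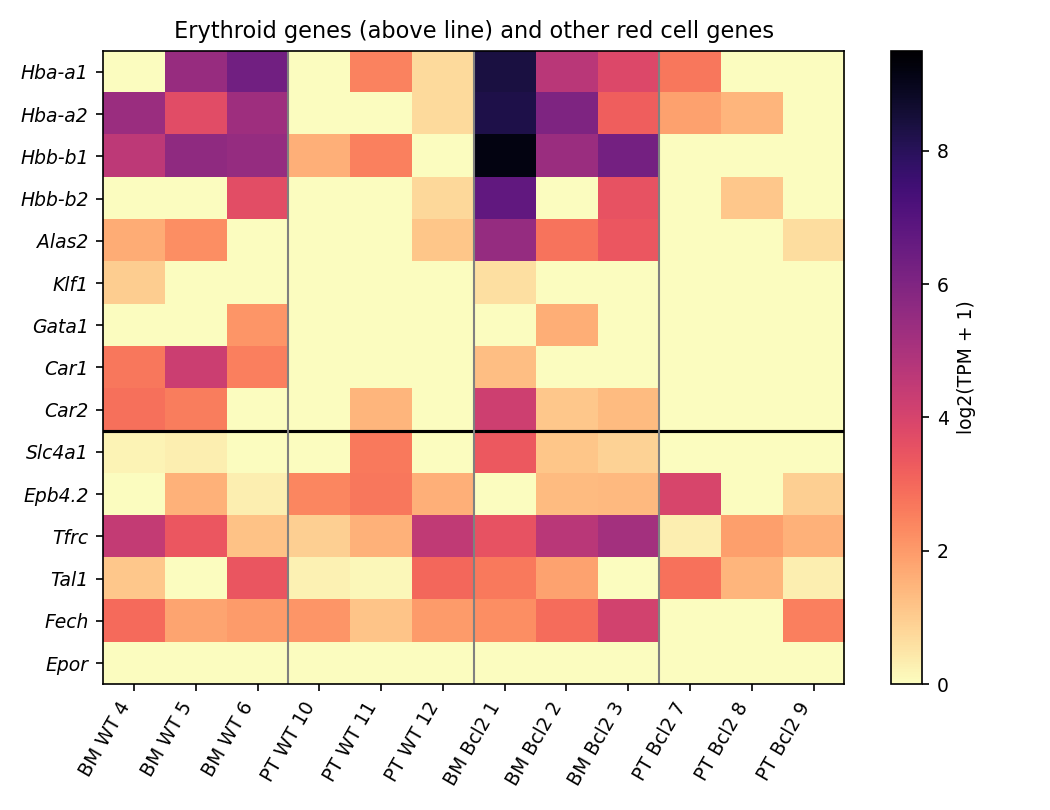
The colour gives log2(TPM + 1) of the 9 members (above the line) and of 6 other red cell genes (below it) in each library, darker for a higher level. Library 1 is darkest for the globin genes, with 1322 TPM in sum, and also holds the highest Slc4a1, while Epor is at 0 in every library.

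The median of the wider erythroid lists lay close to that of all genes. Of 78 listed genes in the table beside the members, 54 were tested. In WT, 2 were higher in PT and 0 lower by limma (1.59% and 1.22% of all genes), with a median log2 fold change of 0.14 against 0.22 over all genes tested. Of these 54, 14 were lower and 3 higher in PT of MRP8-Bcl2 mice, where 19.1% of all genes were lower and 2.31% higher, and their median was -1.17 against -1.02. After the data were seen, these lists were also counted under both scalings and without library 9. In MRP8-Bcl2 mice 4 were then lower and 6 higher with libraries centred, 6 lower and 4 higher under quantile normalization, and 11 lower and 3 higher without library 9. In WT 1 was higher when centred, 2 were higher and 1 lower under quantile normalization, and 1 was higher without library 9.

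Haem synthesis genes were called lower in MRP8-Bcl2 mice for 6 of 13 tested, where 19.1% of all genes were, and in WT for none, where 1.22% were. Their median log2 fold changes were -2.33 and -0.66, against -1.02 and 0.22 over all genes. None of them was called in MRP8-Bcl2 mice under either scaling, and 4 were called without library 9. Abcb10, which encodes a mitochondrial transporter, fell by 2.80 on the log2 scale in MRP8-Bcl2 mice (limma adjusted p = 0.0145, and 0.178 when centred). Cpox, for a late enzyme of the pathway, fell by 1.82 over both genotypes (limma adjusted p = 0.0421, and 0.0523 without library 9). Most genes on this list serve haem in many cell types, so the list as a whole is not particular to red cells.

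Transcription factor genes on the list were lower in MRP8-Bcl2 mice for 4 of 10 tested, where 19.1% of all genes were, and in WT for none, where 1.22% were. Lmo2, Ldb1 and Myb had log2 fold changes of -4.43, -3.78 and -4.496 there (limma adjusted p = 0.00144, 0.00386 and 0.00421), and stayed called under both scalings and without library 9. The count was 3 when centred and 4 under the other 2 alternatives. Ikzf1 fell by 1.70 over both genotypes (adjusted p = 0.00350, and 0.105 when centred). All 4 are also expressed in early myeloid or lymphoid cells. Myb, which marks blood progenitors, was at 5.14 to 45.9 TPM in BM and at 0 to 4.98 TPM in PT.

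The membrane and enzyme lists had shares of lower calls in MRP8-Bcl2 mice that did not exceed the 19.1% of all genes. The membrane list had 1 of 10 tested, Epb4.1, which encodes protein 4.1 of the skeleton (-2.64, limma adjusted p = 0.0259, and 0.286 when centred). Slc2a1, the glucose transporter gene, was higher over both genotypes (1.92, limma adjusted p = 0.0132). The enzyme list had 2 of 11, Gpx1 (-3.23, limma adjusted p = 0.00332, and 0.112 when centred) and Prdx2 (-4.02, limma adjusted p = 0.00428), which encode peroxide-removing enzymes.

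The iron and erythropoietin list moved in both directions. In MRP8-Bcl2 mice 3 of 10 tested were higher and 1 lower, against 2.31% and 19.1% of all genes, with a median log2 fold change of -0.22. The lower gene was Tfrc (-3.20, limma adjusted p = 0.0400), which lost its call when centred (adjusted p = 0.206) and without library 9 (adjusted p = 0.0628). Fth1, which encodes the heavy chain of the iron store ferritin, rose by 2.67 on the log2 scale in WT (limma adjusted p = 0.0199, and 0.108 when centred) and by 3.24 in MRP8-Bcl2 mice (adjusted p = 0.00233), from 492 to 1716 TPM in the BM libraries to 5496 to 19951 TPM in PT. Ftl1, the light chain gene, and Slc40a1, the iron exporter gene, rose in MRP8-Bcl2 mice (2.497 and 2.14, adjusted p = 0.0127 and 0.0134). Jak2, the kinase gene of erythropoietin signalling, rose in WT (2.54, limma adjusted p = 0.0474), with an adjusted p of 0.0580 without library 9. Ferritin and Slc40a1 are also well expressed by macrophages.

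Markers of other cells were read beside the globins. Camp and Ltf, which encode granule proteins of immature neutrophils, were at 2844 to 9783 and 376 to 2719 TPM in BM and at 19.3 to 56.4 and 9.57 to 37.7 TPM in PT, the same direction as the globins. Mcpt8, a basophil protease gene, was at 5.37 to 19.0 TPM in 5 BM libraries and at 0 in library 2 and in all of PT. The summed platelet list ran from 10.5 to 37.6 TPM in BM and from 28.7 to 534 TPM in PT, so the ranges overlapped. PT Bcl2 libraries 8 and 9 were at 28.7 and 30.45 TPM, below BM Bcl2 library 2. Pf4, the platelet factor gene, was at 9.69 to 521 TPM in PT and at 0 in 5 of 6 BM libraries. It made up 521 of the 534 TPM in PT Bcl2 library 7. In MRP8-Bcl2 mice Ppbp was also higher in PT (log2 fold change 0.45), but Itga2b, Gp1ba and Vwf were lower (-1.10, -0.16 and -0.18). In WT mice, Gp1ba alone of the tested platelet genes was lower (-0.48). The part of these other cells in the globin result was not tested.

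Library 1 stood at different places among the BM libraries for these lists. The summed macrophage list was lowest in library 1, at 65.8 TPM against 121 to 263 TPM in the other BM libraries, and Emr1, the gene of the F4/80 antigen used in the gate, was at 2.08 TPM there against 0 to 18.5 TPM. Its summed neutrophil list, at 258480 TPM, lay within the 92523 to 377870 TPM of the other BM libraries. The eosinophil list summed to 32.2 TPM in library 1 and 63.1 to 315 TPM in the others, with Epx at 0 in all 12 libraries and Prg2 at 4.53 TPM in library 2 alone. Cpa3, a mast cell gene, was at 5.00 TPM in library 1, and its highest value of 481 TPM was in PT WT library 12. Summed B cell genes were at 102 TPM in library 1 against 20.3 to 87.2 TPM, and summed T cell genes at 46.6 TPM against 39.3 to 71.2 TPM.

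The genes whose levels most resembled the mean log2 level of the 4 globin genes were Bin3 (Pearson's r = 0.919 over 12 libraries), 2510039O18Rik (0.907), Pabpc1l (0.903), Coro1a (0.9001), Ntpcr, Tas1r3, Rac2, Arid3a, Rgag4 and Ctnnbip1 (0.889). None of them is on an erythroid list. The median r over the 13449 genes tested outside the members was 0.14, and 1 erythroid list gene was among the first 100. Coro1a and Rac2, which encode proteins of the actin machinery of leukocytes, were at 366 to 538 and 215 to 455 TPM in BM and at 108 to 204 and 97.1 to 177 TPM in PT. Among members outside the globins, Alas2 had an r of 0.787, Car2 of 0.697 and Car1 of 0.441. These values describe 12 libraries that differ in tissue and depth. With each group's mean removed, r of the 10 genes most like globin ran from 0.471 (Ntpcr) to 0.835 (Rgag4).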

How the data were processed

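Neutrophil RNA of 4 groups of 3 libraries was sequenced. The authors ran AltAnalyze and deposited log2(TPM + 1) per gene and library, which was converted back to TPM here. Its version and genome build are not given in the sources used here. Libraries were assigned to groups by the column names and the header of the deposited marker table. The authors' averages, fold changes and p-values were not used, nor were 2 per-sample columns of another table that name no sample. Reads were estimated from the spacing of low TPM values in 5021 genes with 1 transcript (length less 260 nt), of which 73.6 to 81.3% lay within 0.15 of a whole read.

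The comparisons used limma (version 3.58.1, R 4.3.3, variance trend, 8 residual degrees of freedom), tested first on simulated data. The members and gene lists were chosen with earlier results of these data known. Besides the 9 members, fixed marker genes, up to 3 called genes with the smallest adjusted p per erythroid list and comparison, and the 10 genes most like globin were named, except some that are not reported here. Alternatives were other pseudocounts, filters, scalings, thresholds and fits, summed copies, and leaving out each library. For the erythroid lists, both scalings and leaving out library 9 were added after the data were seen. Sequences are from RefSeq and GENCODE.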

Additional observations from a re-analysis of the deposited data

How the results depend on the processing

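Of the values for single members, 283 of 315 under other settings and 346 of 372 without single libraries kept their direction and side of the threshold. The counts of members called are not among these values. They include values that were not called and stayed so, and a call was lost in 29 and 18 of them. Hba-a1 lost its call in MRP8-Bcl2 mice under 7 of 10 other settings and that over both genotypes under 5 of 10. Hbb-b1 lost its call in WT under 5 of 10, but in MRP8-Bcl2 mice under 0 of 10. The 3 members called in WT became 1 without a filter on low values, 1 with only the groups compared and 0 at an adjusted p under 0.01, and 0 to 3 without single libraries. The 4 called in MRP8-Bcl2 mice became 1 with libraries centred on their median and 1 under quantile normalization, and 3 to 4 without single libraries. The 5 called over both genotypes became 2, 3 and 3 when centred, quantile normalized or at an adjusted p under 0.01, and 4 to 6 without single libraries. The PT to BM ratio of the globin sum, 0.0393 in WT and 0.00711 in MRP8-Bcl2 mice, ran from 0.0178 to 0.0536 and from 0.00279 to 0.0314 without single libraries. The causes were not tested. The interaction and both genotype comparisons called 0 members under every setting run.

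Direction reversed for uncalled values alone. Hbb-b2 in PT against BM of WT ran from -1.57 to 0.26 without single libraries, positive without library 6, and Car1 in MRP8-Bcl2 mice became 1.16 when centred. In Bcl2 against WT in BM, Car2 became -0.34 when centred and ran from -0.60 to 0.96 without single libraries, negative without library 1 (-0.60) or 6 (-0.51). There Hba-a1 ran from -0.25 (without library 4) to 2.91 and Hba-a2 from -0.18 (without library 1) to 2.36. No paired analysis was possible because the columns carry no replicate numbers. The few reads on each member, at most 19 on all 9 in a PT library, limit any comparison within PT.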
